A study of Danio rerio with 3 samples.

Results

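The collagen genes were taken as every symbol in the gene lists of the matrices that starts with col, a number, the letter a and a further number. The rule found 54 symbols among 28216, carried by 56 identifiers, since col6a3 and col19a1 each stand under 2 identifiers whose counts in the matrices were summed. Of these symbols, col4a3bpa and col4a3bpb encode ceramide transfer proteins named after a collagen that their human relative binds, which leaves 52 collagen chains. Whole wild-type zebrafish larvae, pooled at 48 h post fertilisation, were dissociated with TrypLE for 30 min at 37 °C in the presence of 10 mM 4-thiouridine (4sU), fixed in methanol, and treated with 10 mM iodoacetamide, after which RNA made during the labelling carries T-to-C substitutions. All 3 groups shared these steps. The first group was fixed straight after dissociation, the next passed fluorescence-activated cell sorting (FACS) with a wide gate on size and granularity before fixation, and the last was sorted in the same way and then kept on ice for 30 min. Sorted cells met 4sU again in the cooled tube that received them. Each group had 1 library, so no test between groups was possible, no p-value is given, and all intervals cover counting error only, which leaves out the spread between larvae and suspensions.

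Collagens are secreted proteins made of 3 chains wound around each other, and they build most of the extracellular matrix. Fibrillar chains form the cables of skin, bone and cartilage, chains of type IV form the sheet of basement membranes, and FACIT chains (fibril-associated collagens with interrupted triple helices) decorate the fibrils. In a zebrafish larva of this age, collagens are made in the skin, in the forming cartilage, around the notochord and in the fin folds, where stiff collagen rods called actinotrichia hold the fold in shape. They are long, glycine-rich proteins whose chains are modified in the endoplasmic reticulum before they leave the cell.

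The libraries, here and in every list of 3 values in the order dissociation, FACS, FACS and ice, held 11043, 4609 and 9550 cells with 50313576, 23095410 and 61231163 unique molecular identifiers (UMIs, 1 per captured RNA molecule), at a median of 2402, 3143 and 3995 UMIs per cell. The cell barcodes shared between libraries numbered 11 (dissociation and FACS), 28 (dissociation and FACS and ice) and 12 (both sorted libraries). The authors' tables of reads per cell type covered 14, 15 and 14 cell types, 12 of them in all 3 libraries. The table labelled epidermis did not carry the defining keratins. None of the 7 epidermis markers looked up was highest there in any library, krt4 had 349, 60.8 and 84.1 reads per 1000000 reads of a table (RPM) in it against 62656, 40289 and 59077 in the table labelled pharynx, and the mesenchyme genes twist1a and prrx1a reached 434, 418 and 387 and 103, 98.4 and 87.6. It is called below by its label only. In the cartilage table all 8 cartilage markers were highest in every library, as were all 7 vessel markers in the blood vessel table.

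Collagen RNA made up 2311, 2593 and 2366 UMIs per 1000000 UMIs of a library (CPM), and the 3 chains of type I took 58.5, 55.5 and 55.3% of it. Of the 52 chains, 51, 51 and 50 had at least 1 UMI, 25, 21 and 30 had at least 250, and col28a1b had none in any library, which allows a level of up to 0.0596, 0.130 and 0.0490 CPM, the limit that a count of 0 sets at 3 counts. UMIs come from the 3′ ends of transcripts and count molecules, so levels of chains are set side by side without division by transcript length, although capture may differ between 3′ ends. The 2 members that are not collagens were rare, with 166, 40 and 134 UMIs of col4a3bpa and 39, 42 and 108 of col4a3bpb.

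Among fibrillar chains, type I, the main collagen of skin and bone, led. col1a1a had 619, 673 and 593 CPM, col1a2 had 369, 388 and 369 and col1a1b had 364, 377 and 348, and these 3 values of each chain lay within a factor of 1.5 of each other. The type II chain of cartilage and notochord col2a1a followed with 126, 184 and 161 CPM and its copy col2a1b with 94.6, 98.6 and 75.8. Among the chains that thicken or start fibrils, col5a1 had 107, 151 and 138 CPM and col11a1a 107, 79.9 and 73.2, and the former was lowest and the latter highest in the dissociation library. col24a1 was seen as 1, 1 and 0 UMIs. In the basement membrane class col4a5 (55.5, 38.2 and 31.5 CPM) and col4a6 (34.8, 24.9 and 27.4 CPM) were well above col4a1 (1.99, 2.42 and 4.02) and col4a2 (0.616, 1.17 and 3.41), the chains of the common vessel and tissue basement membrane.

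The FACIT class was led by col12a1a, a chain found on type I fibrils, with 51.5, 62.8 and 59.3 CPM, and by the cartilage chains col9a1a (29.3, 51.3 and 39.6 CPM), col9a2 (30.9, 46.1 and 42.9 CPM) and col9a3 (25.7, 46.6 and 48.4 CPM). These 3 type IX chains were all lowest in the dissociation library. In the class of beaded filaments, fine networks around cells of connective tissue, col6a1 had 34.1, 47.5 and 44.4 CPM, col6a2 22.6, 34.9 and 30.2 and col6a3 11.8, 21.8 and 17.9. All 3 were lowest in the dissociation library and highest after FACS. The short-chain class consisted almost only of col10a1a, in mammals a mark of hypertrophic cartilage and in fish also of bone-forming cells, with 9.94, 42.5 and 29.8 CPM. Its relatives were far lower, and col8a2 and col8a1a had 0.994, 1.17 and 0.964 and 0.258, 0.216 and 0.980 CPM. The multiplexin col18a1a, a basement membrane proteoglycan that holds the endostatin domain, had 58.2, 35.9 and 32.5 CPM, the anchoring fibril chain col7a1 11.2, 6.02 and 6.29, the hemidesmosome chain col17a1a 4.03, 2.16 and 3.14 and the type XXVIII chain col28a2a 18.8, 9.87 and 12.2. Each of these 4 chains was highest in the dissociation library. The other multiplexins were far below col18a1a, col15a1b at 4.53, 3.77 and 4.43 CPM and col18a1b at 2.01, 2.29 and 2.27, and the copy col17a1b was below col17a1a at 2.86, 1.69 and 1.47. The remaining type XXVIII and type VII chains were rare, col28a1a with 79, 11 and 74 UMIs, col28a2b with 9, 2 and 3 and col7a1l with 21, 7 and 32, and col10a1b had 1, 4 and 5. Among the chains not yet named, the FACIT chains col14a1a and col16a1 had 259, 91 and 329 and 186, 118 and 308 UMIs and the beaded filament chain col6a4a 217, 127 and 549. The type IV chains col4a3 and col4a4 had 46, 17 and 60 and 47, 18 and 61, the type V chains col5a3b, col5a3a and col5a2b 84, 20 and 103, 22, 16 and 67 and 5, 5 and 17. Of col21a1 there were 13, 5 and 33 UMIs, of col14a1b 8, 1 and 7 and of col8a1b 11, 4 and 6.

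**Figure D1:**
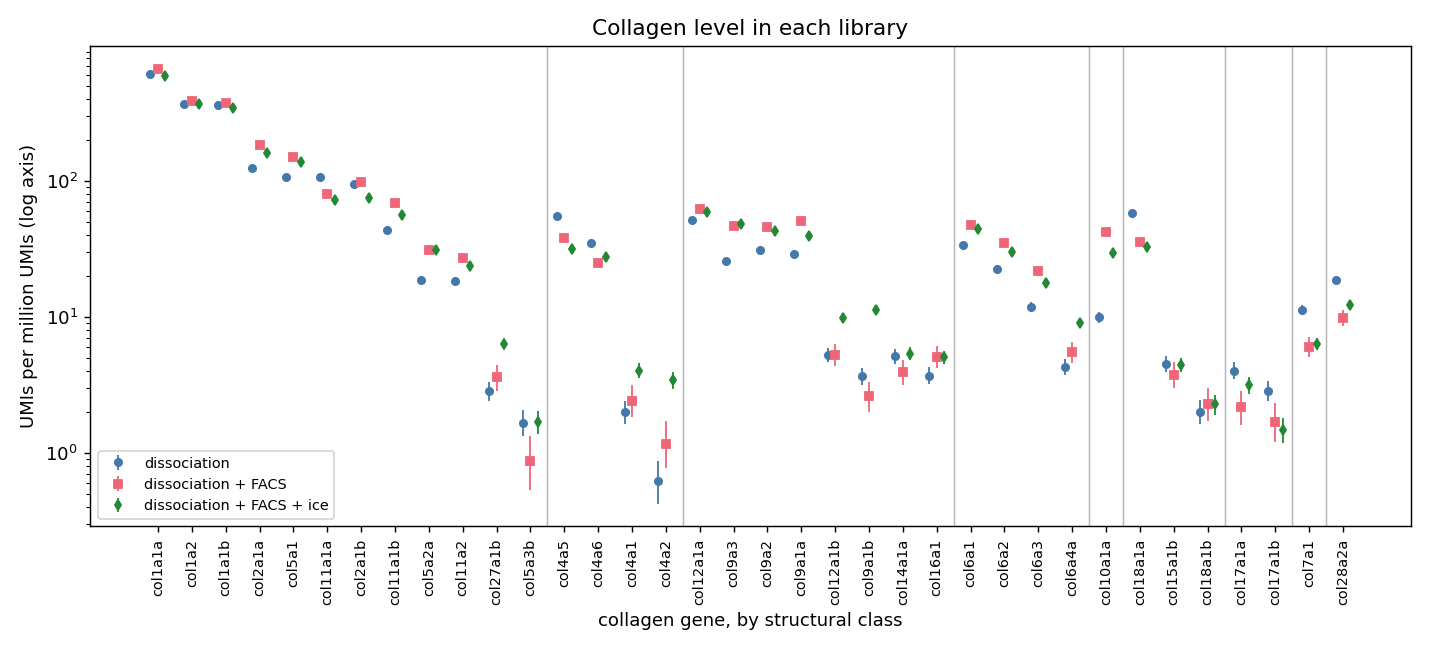
Level of each collagen with at least 100 UMIs in a library, in CPM on a log axis, ordered by structural class (grey lines) and by total UMIs, with exact Poisson 95% intervals for counting error. col18a1a, col4a5, col7a1 and col28a2a sit highest in the dissociation library, while col10a1a, col9a3 and col6a3 sit lowest there.

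The cell type tables placed most collagens in cartilage or in the table labelled epidermis, and col1a1a in the pectoral fins. Of 29 collagens with at least 250 reads in each library, 19 were highest in the same table in all 3 libraries, among the 12 tables common to them. Over all 10733 genes with that depth this held for 35.0%. The shared highest table was cartilage for 9 collagens, the table labelled epidermis for 9 and the pectoral fins for 1. For 11 of the 29 the highest table exceeded the next by at least 3-fold in every library, against 5.50% of all genes. Of the 29, 7 had this margin in cartilage, 3 in the table labelled epidermis and 1 in the pectoral fins. All collagens together reached 7849.8, 9125 and 9703 RPM in cartilage, 6831, 8585 and 5767 in the table labelled epidermis and 11099, 11113 and 9086 in the pectoral fins, against 133, 151 and 166 in the nervous system and 192, 173 and 266 in blood. Red blood cells are not known to make fibrillar collagen, and the source of the collagen reads in the blood table was not tested.

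In cartilage, the collagens of the cartilage fibril stood together. col2a1a had 2705, 2758 and 2888 RPM there, and its next table was at 66.3, 83.7 and 84.9. The FACIT chains that coat this fibril followed, with col9a1a at 652, 660.0 and 658 RPM, col9a2 at 654, 719.9 and 851 and col9a3 at 538, 696 and 813. Levels of col2a1a and col9a1a in this table were thus even over the libraries, while col9a2 and col9a3 were lowest after dissociation. The type XI chains of the fibril core had 790.0, 709.8 and 722 RPM (col11a1a) and 488, 468 and 536 RPM (col11a2). The last lay mostly here, with 87.7, 89.3 and 90.9% of its reads in this table and 3.14, 1.44 and 3.06 RPM in blood. The fibrillar chain col27a1b was also highest in cartilage, but only at 32.8, 25.7 and 40.1 RPM.

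The table labelled epidermis held the type I chains col1a1b (1348, 2035 and 1249.7 RPM) and col1a2 (1355, 1824 and 1271 RPM) with the type V, VI and XII chains. Of the type V chains, col5a1 reached 651, 766 and 497 RPM and col5a2a 147, 156 and 138. Of the type VI chains, col6a1 reached 275, 285 and 198, col6a2 167, 190.2 and 129 and col6a3 93.5, 111 and 78.3, and all 3 were lowest after FACS and ice. Reads named for both identifiers of col6a3 together are not part of its values. The table held 66.9, 68.6 and 72.5% of the reads of col6a1. col12a1a was at 248, 239 and 175 RPM here and at 121, 131 and 141 in cartilage. The table labelled epidermis held 53.6, 49.7 and 52.4% of its reads.

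**Figure D2:**
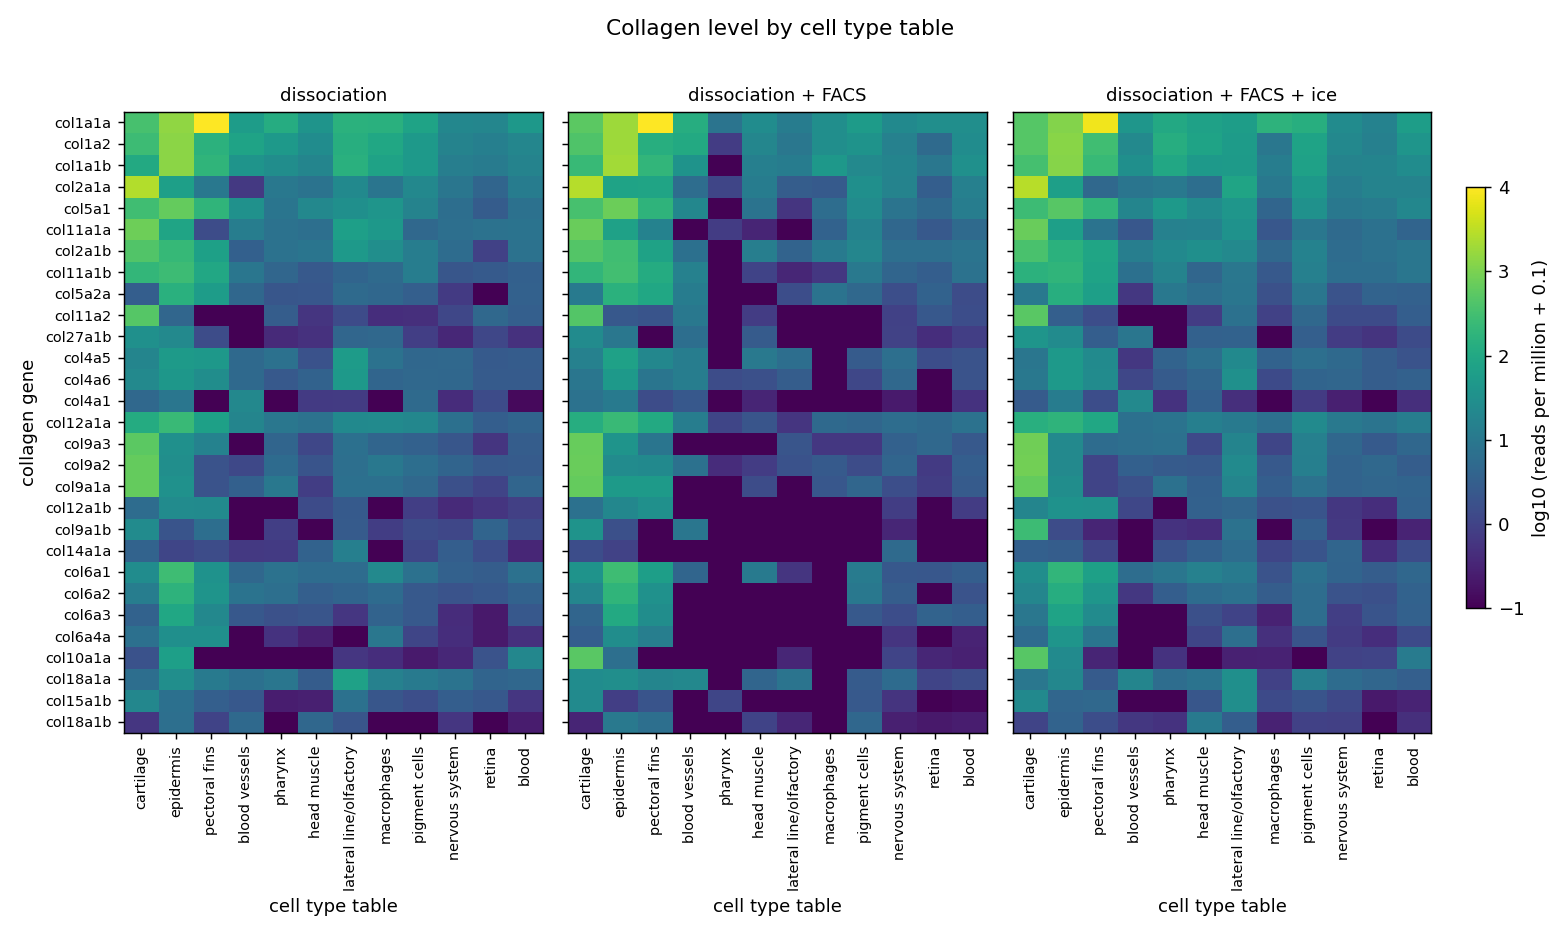
Level of the 29 collagens with at least 250 reads in each library (rows, by class) in the 12 cell type tables common to the 3 libraries (columns), as log10 of RPM plus 0.1. Type II and IX chains, col11a1a and col11a2 are brightest in cartilage, col1a1b, col1a2 and most type V and VI chains in the table labelled epidermis, and col1a1a in the pectoral fins.

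The chains of type I parted in the fins. In the pectoral fin table col1a1a had 9979, 9787 and 7757 RPM, the highest value of any collagen in any table, while col1a2 had 166, 139 and 288 and col1a1b 184, 196 and 239. The ratio of col1a1a to col1a2 reads was 60.2, 70.4 and 26.9 there, and 1.097, 1.01 and 0.914 in the table labelled epidermis and 1.33, 1.28 and 1.02 in cartilage. Counts were not divided by transcript length, so these ratios compare tables and not the chains of a protein. This table also held and1 and and2, genes of the actinodin proteins of actinotrichia, at 1770.0, 2493 and 1725 and 4916, 5622 and 4407 RPM. In the macrophage table of the FACS and ice library alone, col1a1a again stood apart, with 173 RPM against 9.69 of col1a2, a ratio of 17.9 (95% interval 13.4 to 23.9), and and1 and and2 were at 47.2 and 99.9 RPM in the same table. In the 2 other libraries the ratio in macrophages was 1.58 and 1.01. The part of fin cells in that table was not tested. After FACS the ratio was also 5.50 (95% interval 3.99 to 7.58) in the retina and 12.5 (2.96 to 52.8) in the pharynx, on 25 reads of col1a1a and 2 of col1a2.

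**Figure D3:**
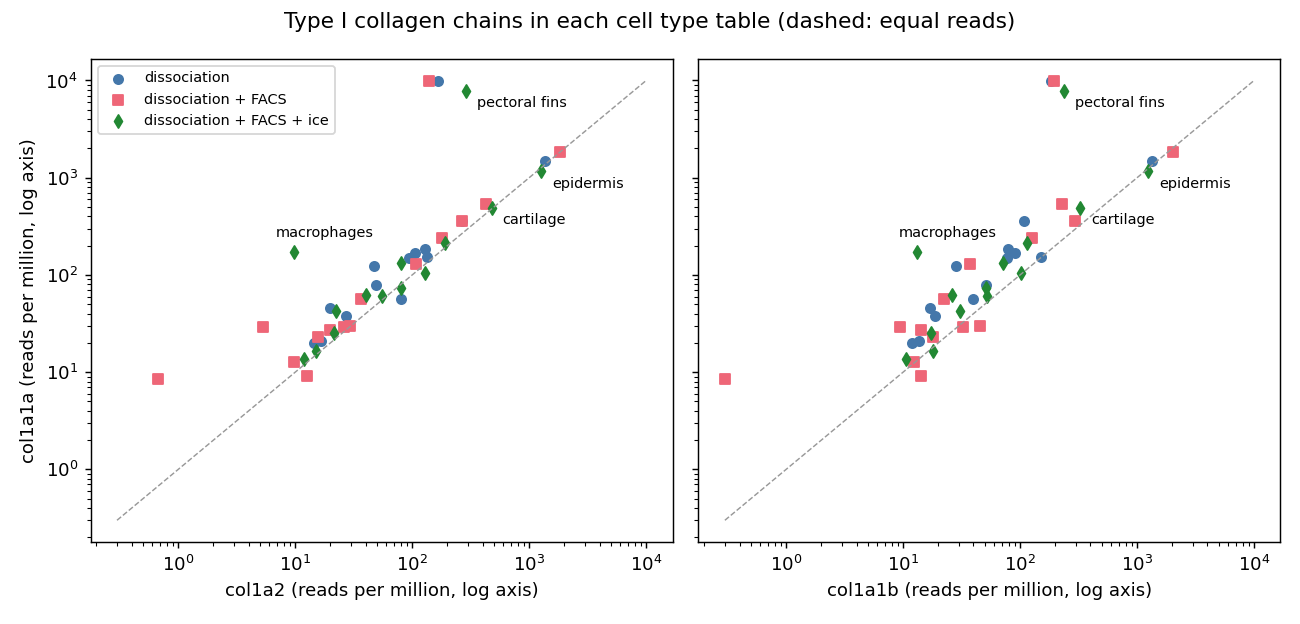
RPM of col1a1a against col1a2 (left) and col1a1b (right) in every cell type table of the 3 libraries, on log axes, with the line of equal reads dashed. The pectoral fin tables lie far above the line in all 3 libraries and the macrophage table only in the FACS and ice library. The FACS pharynx table (25 against 2 reads of col1a2) and retina table are also above the line, and the 1 table with no col1a1b read is drawn at 0.3.

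In single cells, col1a1a stood apart from its partner chains where and1 and and2 were high. Cells in which and1 and and2 made up at least 1% of UMIs numbered 65, 32 and 64, with 20, 9 and 33 cells near this limit (0.75 to 1.25%), which was chosen after the data were seen. Their col1a1a level was 14580.0, 18830.5 and 14957 CPM, beside 188, 219 and 187 of col1a2, 261, 324 and 229 of col1a1b and 119.6, 145 and 101 of col2a1b. In all other cells col1a1a stood at 447, 447 and 433 CPM and col1a2 at 371, 390.1 and 371. These few cells held 28.6, 34.4 and 27.7% of all col1a1a UMIs of a library, but 0.620, 0.692 and 0.558% of those of col1a2. At a limit of 2% the col1a1a level was 20813, 29376 and 21256 CPM and that of col1a2 35.6, 64.1 and 58.0. Among the other chains, col18a1a (532, 374 and 273 CPM against 52.4, 31.7 and 29.9 in other cells) and col28a2a (259, 130.4 and 181 against 15.8, 8.37 and 10.3) were also higher in these cells in each library.

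The other copies of duplicated chains differed as well. Zebrafish keep a and b copies of many chains from an ancient genome duplication, and for types I, II and XI both copies had at least 250 UMIs in each library. While col2a1a stood in cartilage, as given above, its copy col2a1b had 444, 455 and 375 RPM there, 226, 292 and 158 in the table labelled epidermis and 70.7, 74.7 and 85.8 in the pectoral fins. The cartilage table held 81.5, 83.5 and 81.4% of the reads of col2a1a and 29.9, 31.5 and 29.7% of those of col2a1b. For type XI, col11a1a was 84.0, 72.9 and 66.4 RPM in the table labelled epidermis, while col11a1b was highest in that table (264, 299.8 and 189 RPM) and reached 207, 197 and 165 in cartilage. Reads that near-identical stretches of such copies share could be split between them by the counting, and their number is not known.

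Basement membrane chains were placed less surely. col4a1 was highest in blood vessels in the dissociation and the FACS and ice libraries, at 21.4 and 22.7 RPM, on 38 and 42 reads, but had 2.30 RPM there after FACS, on 5 reads. col4a2 was highest in blood vessels in all 3 libraries, at 10.1, 11.9 and 43.8 RPM, though its reads in the dissociation library were under 250 in all. col4a5 and col4a6, which lie head to head in vertebrate genomes and make the basement membrane network of skin, were led by the table of the lateral line and olfactory organ in the dissociation library (55.3 and 51.3 RPM) and by the table labelled epidermis in both sorted libraries (71.7 and 48.1 RPM for col4a5). The FACIT chain col19a1 was highest in head muscle in the dissociation library, with 12.2 RPM and 77.2% of its reads, and had under 250 reads in the others.

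Some collagens had few table reads for their UMIs. Over all genes with at least 250 UMIs, a median of 3.30, 6.95 and 2.84 table reads stood for each UMI, and 95% of the genes had more than 2.16, 4.85 and 2.10. col2a1a reached 3.10, 7.01 and 2.99, close to the median. In contrast, col7a1 had 0.285, 0.554 and 0.281 table reads per UMI, col28a2a 0.417, 0.456 and 0.293, col17a1a 0.394, 0.120 and 0.0573, col18a1a 0.890, 2.41 and 0.944 and col4a5 0.881, 3.07 and 1.25. A value below 1 means that at least some UMIs of the chain had no read in the tables, and whether their cells lay outside the authors' cell types was not tested. The keratins krt5 and krt91, which mark the basal layer of the skin, were as low, at 0.882, 1.06 and 0.425 and 0.663, 0.778 and 0.457 table reads per UMI.

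Cells in which krt5 and krt91 made up at least 1% of UMIs held much of the RNA of these chains. They numbered 202, 49 and 92, or 1.83, 1.06 and 0.963% of cells, with 53, 10 and 23 cells near the limit (0.75 to 1.25%), and this limit too was set after the data were seen. They held 79.8, 86.0 and 83.3% of the UMIs of col17a1a and 80.4, 66.9 and 67.8% of those of col7a1, the chains that tie basal skin cells to the matrix below. They also held 61.8, 63.2 and 48.4% of col28a2a, 54.8, 32.8 and 36.1% of col4a5, 50.7, 29.5 and 27.0% of col4a6 and 47.7, 36.6 and 31.5% of col18a1a. Their type I level was high and even, with 3153, 3618 and 2503 CPM of col1a1a, 3459, 4082 and 3151 of col1a1b and 3171, 3492 and 2842 of col1a2. Of all col1a1b UMIs, 53.9, 24.1 and 24.5% lay in these cells, the highest share in the dissociation library. The cartilage chains were low in them, with 16.8, 1.94 and 10.2 CPM of col9a2 against 31.8, 47.1 and 43.8 in the rest. The keratin-rich cells carried almost no and1 or and2, with a median share of 0 in each library.

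**Figure D4:**
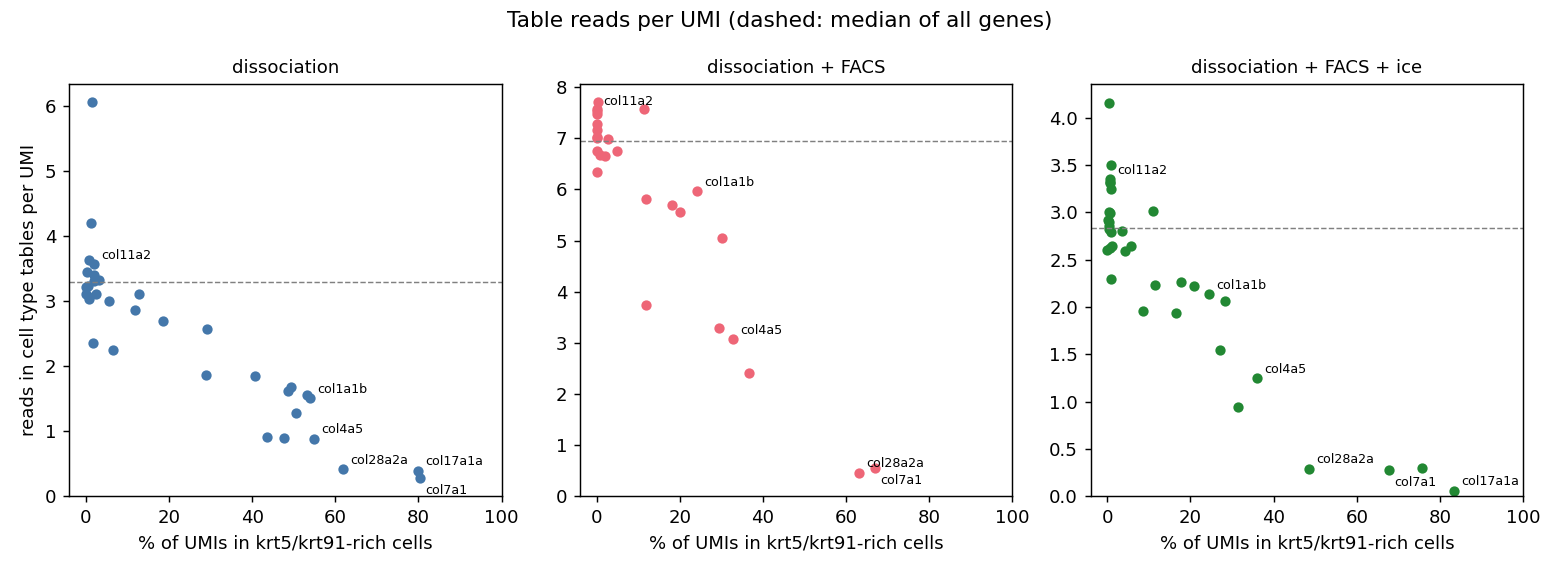
Table reads per UMI of each collagen with at least 100 UMIs (y axis) against the percentage of its UMIs found in cells with at least 1% krt5 and krt91 (x axis), 1 panel per library, with the median over all genes dashed. col17a1a, col7a1 and col28a2a lie lowest and far to the right, below the dashed median in each panel where they have 100 UMIs, and all points of a panel share a library.

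In most pairs, cells with a chain of a protein held its partner chain more often than cells without it, but the share differed between pairs. Cells were thinned to 1500 UMIs, which left out 3491, 853 and 1649 shallower cells and kept 7552, 3756 and 7901, and 12 pairs were described. Among cells with a UMI of col1a1a, col1a2 was found in 744 of 1396 cells (53.3%, 95% interval 50.6 to 55.9) of the dissociation library, in 384 of 652 cells (58.9%, 95% interval 55.0 to 62.7) after FACS and in 806 of 1398 cells (57.7%, 95% interval 55.0 to 60.3) after FACS and ice. Among cells without col1a1a the share was 7.07, 5.38 and 6.41%, and in blood-like cells, those with at least 50% haemoglobin UMIs and thinned to the same depth, it was 0.763, 0.373 and 1.49%. For the cartilage pair col9a1a and col9a2 the share was 50.9, 46.9 and 47.5%, against 1.79, 1.19 and 1.42% in cells without col9a1a and 0.254, 0.373 and 0.249% in blood-like cells. For col6a1 and col6a2 it was 37.6, 37.7 and 31.0%, against 1.51, 2.19 and 2.07% and 0, 0.373 and 0.249%. For each of these pairs the intervals of the 3 libraries overlapped. Lower shares were found for col5a1 and col5a2a, at 15.5, 23.1 and 20.3%, against 1.17, 1.72 and 1.75% in cells without col5a1. For col11a1a and col11a2 the shares were 15.0, 16.6 and 18.0%, and for col6a1 and col6a3 19.9, 19.9 and 19.3%. For col2a1a and col11a2 they were 23.4, 21.8 and 20.5%. Only 6, 1 and 7 cells had col8a1a, and 1, 0 and 0 of them held col8a2. Without thinning, the share for col1a1a and col1a2 was 55.1, 67.3 and 65.8%, and 7.36, 2.11 and 6.68% of blood-like cells had col1a2. col4a1 and col4a2, which share 1 promoter region in vertebrates, were rare at this depth, with 1 cell holding both among 24, 17 and 44 cells with col4a1. Without thinning, 4, 7 and 51 of 86, 49 and 197 cells with col4a1 held col4a2 (4.65, 14.3 and 25.9%). This stood against 0.237, 0.417 and 1.23% of cells without col4a1 and 0% of blood-like cells in each library. These shares are not at equal depth, and the median UMIs per cell rose in the same order (2402, 3143 and 3995). They are therefore not compared between libraries.

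The level of several collagens differed between libraries. Compared with the dissociation library, col10a1a, col9a3, col12a1b, col5a2a and col6a3 were at least 1.5-fold higher after FACS and ice, and col18a1a, col7a1, col4a5 and col28a2a at least 1.5-fold lower. Of 25 collagens with at least 250 UMIs in both libraries these are 5 higher and 4 lower, beside 11.7% and 5.58% of all 7181 genes. The median ratio over these 25 was 1.28, and over all genes 1.13. By the median over cell type tables, which 23 collagens allowed, 5 were higher by 1.5-fold and 0 lower. That median gives each table used the same weight, whatever its share of a chain's reads. No share of all genes is given for it, here or below, so its counts cannot be read against other genes. After FACS alone, 7 of 21 collagens were at least 1.5-fold higher and 1 was lower, beside 4.95% and 5.06% of 4562 genes, with a median ratio of 1.41 against 1.07 for all genes. Taken as the median over cell type tables, which 20 collagens allowed, 0 were higher by 1.5-fold and 1, col11a2, was lower. By that measure no call of FACS over dissociation that could be recomputed was kept. In cartilage, however, which held 87.7% of the reads of col11a2 after dissociation and 89.3% after FACS, it had 488 and 468 RPM. Between both sorted libraries, 0 of 21 collagens differed by 1.5-fold in either direction, beside 4.30% of genes higher and 1.18% lower after FACS and ice. The median there was 0.907 against 1.08, and 19 of the 21 were below 1, a count given without its share over all genes. As the median over cell type tables, however, 11 of the 21 were above 1, with a median of 1.01. By that measure col1a1a, col1a2 and col11a2 were 1.5-fold higher after FACS and ice. Their highest tables did not show such a rise. In the pectoral fins col1a1a had 9787 RPM after FACS and 7757 after FACS and ice. For col1a2 these were 1824 and 1271 in the table labelled epidermis, and for col11a2 468 and 536 in cartilage. The comparisons share libraries, and with counts of whole suspensions, fewer cells of a type and less RNA per cell cannot be told apart.

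The chains that were lower after sorting were among those that keratin-rich cells held, but not every chain held there was lower. The ratio of FACS and ice over dissociation was 0.559 (95% interval 0.528 to 0.592) for col18a1a, 0.560 (95% interval 0.492 to 0.637) for col7a1, 0.567 (95% interval 0.535 to 0.601) for col4a5 and 0.650 (95% interval 0.591 to 0.716) for col28a2a. col11a1a, at 0.686 (95% interval 0.659 to 0.714), followed just short of the limit, and col4a6 and col2a1b were at 0.787 and 0.801. In the dissociation library, keratin-rich cells held a larger share of col1a1b than of col18a1a. Even so, the ratio of col1a1b was 0.958 (95% interval 0.939 to 0.977). Over the same libraries krt5 had 662, 234 and 261 CPM and krt91 1217, 534 and 608. Within keratin-rich cells, col4a5 stood at 537, 561 and 419 CPM and col7a1 at 159, 181 and 157. Without these cells, a comparison added after the data were seen, the ratio was 0.711 for col18a1a, 0.778 for col4a5 and 0.852 for col28a2a. col7a1 fell under 250 UMIs, and 0 collagens were 1.5-fold lower, a count given without its share over all genes. Keratin-rich cells held a larger share of these chains after dissociation than after FACS and ice. Leaving them out could thus only raise the ratios. As the median over cell type tables, the ratio was 0.898 for col18a1a, 0.890 for col4a5 and, above 1, 1.13 for col28a2a. The part that the number of keratin-rich cells has in these ratios was not tested.

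Higher after FACS and ice were the cartilage chain col9a3 and, from the table labelled epidermis, col5a2a and col6a3, together with col12a1b, whose highest table was not the same throughout. For FACS and ice over dissociation the ratio was 1.88 (95% interval 1.76 to 2.01) for col9a3, 1.88 (95% interval 1.63 to 2.18) for col12a1b, 1.66 (95% interval 1.54 to 1.80) for col5a2a and 1.51 (95% interval 1.37 to 1.67) for col6a3. With a median-of-ratios size factor col5a2a and col6a3 missed the 1.5-fold limit, at 1.44 and 1.31, and without the 5% of cells with most UMIs col6a3 was at 1.38. After FACS alone col12a1b had a ratio of 1.01 on 122 UMIs, too few for the count, and col9a3, col5a2a and col6a3 had 1.81, 1.68 and 1.84. col9a2, with a ratio of 1.39, came next among chains with 250 UMIs in each library. For col9a1a, 1.75 (95% interval 1.62 to 1.89) after FACS over dissociation, the median over cell type tables was 0.985. col9a3 had 538, 696 and 813 RPM in the cartilage table, and col6a3 had 93.5, 111 and 78.3 in the table labelled epidermis, where it was lowest after FACS and ice. Medians over cell type tables for FACS and ice over dissociation were 1.59 (col9a3), 2.17 (col12a1b), 1.74 (col5a2a) and 1.52 (col6a3). The cartilage marker genes matn1 and cnmd, counted over the whole suspensions, had 7.63, 9.01 and 21.4 and 49.0, 53.2 and 59.6 CPM. Library levels of the other cartilage markers are not given, so these values do not describe cartilage RNA as a whole.

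The largest ratio among these collagens, that of col10a1a, rested on a handful of cells. It was 4.28 (95% interval 3.84 to 4.77) after FACS and 3.00 (95% interval 2.72 to 3.31) after FACS and ice. However, 86.8, 96.3 and 96.7% of its UMIs lay in 2, 4 and 10 cells with at least 20 UMIs each. The highest cell alone held 52.6, 32.6 and 18.5%, and all other cells together held 66, 36 and 61 UMIs. These intervals treat each UMI as independent and do not cover the sampling of such cells. The few cells also contained 63.9, 91.1 and 85.9% of the UMIs of ifitm5, a gene of bone-forming cells, and 74.4, 91.3 and 91.2% of those of entpd5a, which is needed for bone mineral in zebrafish. The cells held type I chains and col11a2 but hardly any col2a1a or col9a1a. In them col1a1a was at 2207, 3065 and 2465 CPM, col1a2 at 1332, 2293 and 2454 and col11a2 at 609, 893 and 793 (on 16, 37 and 73 UMIs), against library levels of col11a2 of 18.3, 27.1 and 23.9 CPM. They had 0, 0 and 17 UMIs of col2a1a and 0 of col9a1a in every library. The table labelled epidermis was highest for col10a1a in the dissociation library, with 65.7 RPM and 57.6% of its reads. Blood was next there at 21.0 RPM, and cartilage had 1.69. The cartilage table was highest after FACS (524 RPM, 67.0% of the reads) and after FACS and ice (499.8 RPM, 77.9%). Next in these libraries were the pharyngeal arch at 100 RPM and the table labelled epidermis at 25.1 RPM.

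The chain col9a1b was concentrated in this way in 1 library. col9a1b had 184, 60 and 685 UMIs, and in the FACS and ice library 548 of 685 lay in 4 cells, 281 of them in 1 cell. No cell of the other libraries had 20. The 4 cells held 319 of the 382 UMIs of matn3a, a matrix protein of cartilage, 294 of 629 of epyc and 31 of the 60 of col8a1a. They held 1202 UMIs of col2a1a and 308 of col9a2, but 0 of the copy col9a1a among 37201 UMIs. In the cartilage table col9a1b was at 26.2, 37.7 and 263 RPM. Over all collagens with at least 250 UMIs, the median number of cells that held the upper 50% of a chain's UMIs was 118, 52.0 and 108, against 214, 160.0 and 239 over all genes of that depth, and it was 146, 95 and 206 for col1a2.

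**Figure D5:**
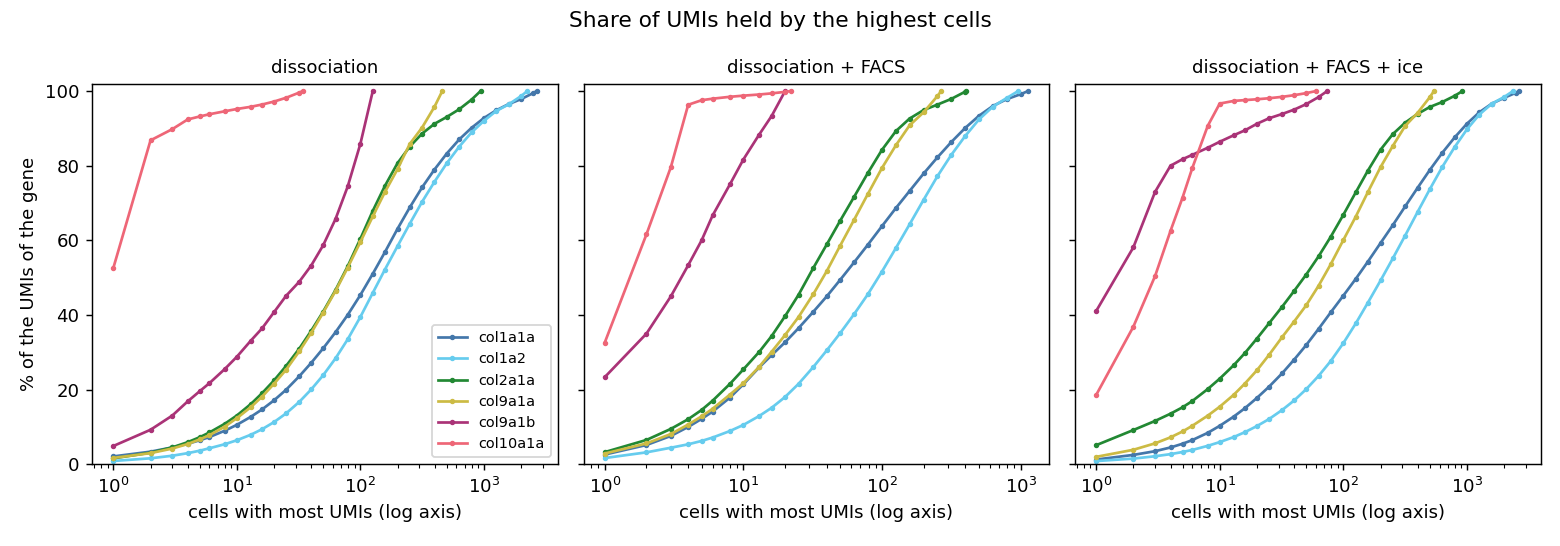
Cumulative percentage of the UMIs of 6 collagens over cells ranked by their UMIs of that chain (x axis, log), 1 panel per library. The curve of col10a1a is above 80% by 2, 4 and 10 cells, that of col9a1b is at 80% by 4 cells after FACS and ice, and passes 80% by 10 cells after FACS on 60 UMIs in all, and the type I and II chains need over 100 cells for 70% in the dissociation library.

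Little collagen RNA carried the label. The authors list the reads that carry at least 2 T-to-C changes in tables of their own. Table reads per UMI differed between libraries, and whether the labelled share was higher in the dissociation or in the FACS library depended on whether entries were divided by reads or by UMIs. The collagens together had 250, 163 and 566 labelled entries against 229334, 359663 and 341880 reads, or 0.109, 0.0453 and 0.166%, where all genes without haemoglobins and joined names had 0.241, 0.181 and 0.422%. Per 100 UMIs these were 0.215, 0.272 and 0.391 entries for collagens and 0.888, 1.47 and 1.35 for all such genes. Entries come only from the cell type tables, whereas UMIs come from all cells, and some collagens had few table reads per UMI. Entries per UMI therefore do not compare collagens with all genes on equal terms. None of 24, 25 and 28 collagens with 250 reads in a table reached the study's limit of 10% labelled, a limit passed by 0.721%, 0.321% and 1.15% of all genes so tested. With shares this low among all genes, the absence of a call does not set so few collagens apart. The highest share of a collagen in a table was that of col6a1 in every library, 1.08% in the pharyngeal arch, 0.904% in cartilage after FACS and 1.39% in the pectoral fins after FACS and ice. In the authors' list per cell, 384, 259 and 682 of 23349, 10951 and 26795 collagen detections (a gene in a cell) were labelled, or 1.64, 2.37 and 2.55%, against 2.63, 3.52 and 3.99% over all genes without haemoglobins. Libraries without 4sU were not analysed here, and the remaining substitution types are given as background. The paper describes a filter against single nucleotide polymorphisms for its bulk data, and none was applied here. Rates of single genes may therefore include such variants.

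The mean T-to-C rate over collagen reads was below that of all genes, here with haemoglobins and joined names included. It was 0.129, 0.128 and 0.151%, below the A-to-G rate of 0.188, 0.175 and 0.168% and the C-to-T rate of 0.351, 0.363 and 0.336% of the same reads. Over all genes the T-to-C rate was 0.277, 0.301 and 0.329% and the A-to-G rate 0.184, 0.189 and 0.189%. For the chains of type I it was 0.0590, 0.0601 and 0.0689% (col1a1a), 0.0413, 0.0468 and 0.0609% (col1a2) and 0.0454, 0.0376 and 0.0484% (col1a1b).

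The collagens with the most labelled entries per 100 UMIs, among those with at least 20 entries in the FACS and ice library, were col6a1, col11a2 and col5a2a. col6a1 had 34, 14 and 76 entries, or 1.98, 1.28 and 2.80 per 100 UMIs, and a T-to-C rate of 0.722, 0.516 and 0.637% that lay above its A-to-G rate of 0.174, 0.167 and 0.241%. Its label was found in 34, 21 and 79 of 790, 453 and 1076 cells. col11a2 had 0.651, 1.28 and 1.78 entries per 100 UMIs, and col5a2a 0.640, 1.39 and 1.64, with A-to-G rates of 1.35, 1.34 and 1.13% for the latter that exceeded its T-to-C rates of 0.308, 0.292 and 0.314%. In the other libraries col11a2 and col5a2a had 6 to 10 entries each. Below that limit, the basement membrane chain col4a1 had 5.00, 3.57 and 4.47 entries per 100 UMIs on 5, 2 and 11 entries. By contrast col1a1a, the most abundant chain, had 0.0900, 0.0901 and 0.190 entries per 100 UMIs and col1a2 0.0755, 0.134 and 0.102. The median over collagens with at least 250 UMIs was 0.231, 0.372 and 0.515 entries per 100 UMIs, and over all genes 0.545, 0.460 and 0.996. The limit of entries per UMI given above holds for these medians too.

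Genes that modify, carry and cross-link collagen were looked up too. Of 46 such genes, 43 were in the gene lists, among them prolyl and lysyl hydroxylases, chaperones, propeptide proteases and lysyl oxidases. Of 27 with at least 250 reads in each library, 13 were highest in the same table throughout, beside 35.0% of all genes, 8 in cartilage, 4 in the pectoral fins and 1 in the table labelled epidermis. Of 18 with at least 250 UMIs in both libraries, 4 were at least 1.5-fold higher and 0 lower after FACS than after dissociation, beside 4.95% and 5.06% of all genes. After FACS and ice, 5 of 19 were higher and 1 lower, beside 11.7% and 5.58%. serpinh1b, the collagen chaperone of the endoplasmic reticulum, was highest in cartilage in every library, at 958, 957 and 1232 RPM. pcolcea, an enhancer of procollagen cleavage, was highest in the table labelled epidermis, at 90.7, 117 and 74.3, and fkbp10b, a chaperone for type I collagen, in the pectoral fins, at 164, 146 and 154. p4hb, the shared subunit of the prolyl hydroxylase, was the 1 gene lower after FACS and ice by 1.5-fold, with a ratio of 0.653.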

How the data were processed

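Single-cell 3′ RNA libraries (10x Genomics, SLAM-seq) were made from 3 suspensions of pooled zebrafish larvae, 1 library per group. According to the submitters' processing notes, reads were demultiplexed with bcl2fastq 2.19, mapped and counted with Cell Ranger 6.1.1 and handled with SAMtools 1.14. The genome was GRCz10. The authors deposited UMI counts per gene and cell, read counts per gene summed over the cells of a cell type, the same for reads with at least 2 T-to-C substitutions, and a list of labelled genes per cell. The substitution values that the authors deposited are a ratio, substitutions per position of the reference base averaged over reads, for 12 substitution types, and are given here as percentages. The authors' map of cells to cell types was not used, so the cell type tables are the authors' own sums.

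Counts were summed per library and divided by library totals (CPM) or table totals (RPM). Ratios between libraries were taken for genes with at least 250 UMIs in both, and a gene was counted as higher or lower past 1.5-fold. The labelled share was read per table for genes with at least 250 reads against a limit of 10%. Intervals are 95% and cover counting error only: exact Poisson for sums, Clopper-Pearson for shares, and a log-normal form for ratios. Reads copied by PCR and UMIs of 1 cell are not independent. Cells were all barcodes of the matrices, and doublets were not treated. Named genes were the 3 collagens with most UMIs of each of 9 structural classes, the 5 largest and 5 smallest ratios of FACS and ice over dissociation, the 3 collagens with most labelled entries per 100 UMIs (of those with at least 20 entries in a library), duplicated chains, and members that are no collagens, and others are named where a count or a comparison turns on them. Members, marker lists and the list of collagen-modifying genes were chosen with earlier results of these data known. The structural classes and the limits that define cells by krt5 and krt91, by and1 and and2, or by 20 UMIs of a chain were set after the data were seen. Entries whose name joins more than 1 gene or identifier did not enter the sums of genes, but were part of table totals and of the substitution rates over all genes. Such a name joins the identifiers of col6a3, with 233, 257 and 527 reads and 0, 0 and 10 labelled entries. The reads and labelled entries given for col6a3 and for all collagens leave these out. The remaining substitution types served as background. Python 3.11.15, numpy 2.4.6, pandas 2.3.3 and scipy 1.17.1 were used, and the ratio code was tested on simulated counts.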

Additional observations from a re-analysis of the deposited data

Results flagged for a closer look

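A joined name outside all comparisons, si:ch1073-286c18.5 with col5a3b, which stands for reads that could not be given to a single gene, carried many labelled entries. They were 10.72% of its 653 reads in the dissociation library, 8.497% of 306 after FACS and 4.422% of 294 after FACS and ice, with 95% intervals of 8.45 to 13.3, 5.63 to 12.2 and 2.38 to 7.44. These shares are over all reads of the name, whereas the limit of 10% is read in single cell type tables. There none of the collagens with at least 250 reads in a table (24, 25 and 28) reached it, beside 0.721%, 0.321% and 1.15% of all genes so tested. That does not set so few collagens apart from all genes. Over all reads of the joined name the T-to-C rate was 0.136, 0.0854 and 0.172%, below its A-to-G rate of 1.15, 0.915 and 0.838%. In the authors' list per cell, 38 of 456, 26 of 105 and 31 of 223 cells with this name were labelled, without such a fall. After FACS and ice these 31 cells outnumbered the 13 labelled entries, so the 2 sources do not count alike. The falling shares of reads are therefore not read as a trend. The cause was not tested.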

How the results depend on the processing

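No paired analysis was possible because each group had 1 library and no test was run. For the ratio of FACS over dissociation, of FACS and ice over dissociation and of FACS and ice over FACS, in this order, the median over collagens was 1.41, 1.28 and 0.907. It was 1.33, 1.11 and 0.837 with a median-of-ratios size factor, 1.32, 1.12 and 0.842 without the 5% of cells with most UMIs, and 1.08, 1.16 and 1.01 as the median over cell type tables. With a minimum of 50 UMIs it was 1.22 and 1.141 for the first 2 ratios, and without haemoglobin genes in the total 0.863 for the third. The number of collagens higher after FACS (7) became 1 at a fold limit of 2 and 3 with a minimum of 1000 UMIs, and the number lower (1) became 0 at a fold limit of 2, 2 with the size factor, 4 with a minimum of 50 UMIs, 0 with a minimum of 1000 and 0 without the keratin-rich cells. After FACS and ice the number higher (5) became 1 at a fold limit of 2, 3 with the size factor, 9 with a minimum of 50 and 1 with a minimum of 1000, and the number lower (4) became 0 at a fold limit of 2, 2 with a minimum of 1000 and 0 without the keratin-rich cells. Between both sorted libraries, 5 were higher with a minimum of 50 UMIs and 1 was lower with the size factor, where 0 were before. Numbers tested and shares of all genes at these other settings are not given, so these counts cannot be read against other genes. As the median over cell type tables, the ratio of col9a1a after FACS was 0.985 and that of col28a2a after FACS and ice 1.13, both on the other side of 1, and of the 21 ratios of FACS and ice over FACS 11 were above 1 where 2 were before. The share of collagens with a stable highest table was 65.5%, and 86.2% by the table with most reads of the gene. The latter depends on the depth of the tables, and the share of all genes given above (35.0%) is by RPM only. The labelled share of collagens after FACS over that after dissociation was 0.416, and turned to 1.27 per 100 UMIs and to 1.44 in the list per cell. After FACS and ice it was 1.52, and 1.82 per 100 UMIs. The T-to-C rate of collagens after FACS over that after dissociation was 0.993, and turned to 1.47 as the median over collagens and to 1.03 with a minimum of 1000 reads. After FACS and ice it was 1.17, and 1.40 as the median. The T-to-C rate minus the A-to-G rate gave no ratio, since the collagen mean was below 0 in each library. Of the other values, 41 for single chains and pairs moved in size without a turn of direction, and 35 summary values and 76 values of chains and pairs stayed close. Leaving out the keratin-rich cells, other marker limits and leaving out the gene with most labelled entries were chosen after seeing the data. With 1 library per group, differences between libraries may reflect the suspensions and not their treatment. Chains under 250 UMIs in a library were given as levels and not counted in its ratios, and the interval of col10a1a, held by few cells, does not cover the sampling of cells.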

Other observations

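The T-to-C rate of col2a1b was 0.455, 0.405 and 0.297% in the dissociation, the FACS and the FACS and ice library, and its A-to-G rate 0.0439, 0.0461 and 0.0520%. Its labelled entries, reads with at least 2 such changes, were 11, 12 and 15, or 0.231, 0.527 and 0.323 per 100 UMIs. The copy col2a1a had T-to-C rates of 0.0594, 0.0905 and 0.0907% with 0.174, 0.189 and 0.183 entries per 100 UMIs. In the authors' list per cell, 2 rare chains carried labelled detections in many of their few cells. These were col28a1a, labelled in 16 of 42, 2 of 10 and 8 of 34 cells, and the type V chain col5a3b, labelled in 25 of 73, 5 of 17 and 26 of 65.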
